A study of Homo sapiens with 34 samples.

Results

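KRT7, KRT8, KRT17, KRT18, KRT19 and KRT23 are keratin genes expressed, or often listed, with simple epithelia. These 6 genes were taken from the 37951 genes listed in the count tables by an exact match of the symbol, and they were followed across all 17 conditions of the RNA sequencing series. All 6 passed the filter on low counts, but KRT17 and KRT23 passed only through libraries of PPS-treated cells: 5 and 2 libraries exceeded the limit of 0.517 CPM (the count scaled to a library total of 1e6), and 0 libraries of any other condition did.

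The series holds 34 libraries of wild-type ESI017 cells, an established line of human pluripotent stem cells (hPSCs), with 2 replicates per condition. It asks how the position assigned to cells within the primitive streak (PS) on day 1 bears on what they become on day 2. Undifferentiated control cells were kept in mTeSR PLUS, a pluripotency medium; their label gives 48 h and the study's text an earlier time. For the first day, the DE(a) mix was activin at 100 ng/ml with CHIR99021, an activator of Wnt signaling, at 2 µM. The APS (anterior PS) mix was CHIR99021 at 4 µM with 20 ng/ml bFGF and activin lowered to 30 ng/ml. In the MPS (mid PS) mix CHIR99021 was raised to 6 µM and BMP4 added at 40 ng/ml, and the PPS (posterior PS) mix was the MPS mix without activin. Cells were collected at 24 h, or were changed on day 2 to 1 of 3 media and collected at 48 h. DE(b) medium, for definitive endoderm, held 100 ng/ml activin and 250 nM LDN, a BMP inhibitor. PM medium, for paraxial mesoderm, held 1 µM A8301, an inhibitor of activin signaling, with 20 ng/ml bFGF and 250 nM LDN; a legend of the study also lists CHIR99021 there. LM medium, for lateral mesoderm, held 1 µM A8301, 30 ng/ml BMP4 and 4 µM IWP2, an inhibitor of Wnt secretion. The standard route to endoderm is DE(a)-DE(b), to paraxial mesoderm APS-PM, and to lateral mesoderm MPS-LM. All libraries come from 1 cell line, so the comparisons describe that line.

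Keratins are the intermediate filament proteins of epithelial cells, and a filament is built from pairs of a type II and a type I chain. KRT8 (type II) and KRT18 (type I) form the pair that appears first in the embryo and persists in single-layered epithelia. KRT7 (type II) and KRT19 (type I) are added in many ducts, in mesothelium and in the amnion, whereas KRT17 is better known from basal and injured epithelium, and KRT23 is a divergent type I chain.

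In GRCh38 with the GENCODE v44 annotation, the 2 type II genes and KRT18 lie on chromosome 12 and the other type I genes on chromosome 17. KRT7 occupies chr12:52232520-52252186 on the plus strand with 9 exons in its canonical transcript, KRT8 chr12:52897187-52949954 on the minus strand with 8 exons, and KRT18 chr12:52948871-52952906 on the plus strand with 7 exons. KRT19 occupies chr17:41523617-41528308 with 6 exons, KRT17 chr17:41619442-41624842 with 8 exons and KRT23 chr17:40922700-40937646 with 9 exons, all on the minus strand. The annotated spans of KRT8 and KRT18 overlap by 1084 bases on opposite strands, although their canonical transcripts are 44041 bases apart. The kit used marks the strand, and the strand setting used in counting is not given in the sources used here. The files list KRT23 under an identifier other than that of GENCODE v44, and its position was matched by symbol.

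How alike the genes are bears on how well reads separate them. Over the whole coding sequence the alignment identity was 69.2% between KRT7 and KRT8, 67.5% between KRT17 and KRT19, 57.7% between KRT18 and KRT19, and 51.2% between KRT8 and KRT18. On the same strand, stretches of 75 bases, the read length, separate the 6 from one another but not always from their pseudogene copies. Of the 75-base stretches of each canonical transcript, 18.8% of KRT8, 6.50% of KRT18 and 4.57% of KRT17 recurred on the same strand of another annotated transcript, and 0 of KRT19, KRT7 and KRT23. On the opposite strand, 21.9% of those of KRT18 recurred in KRT8 transcripts and 9.80% of those of KRT7 in its antisense gene KRT7-AS. Rows of KRT8 and KRT18 pseudogenes held 0.398% and 0.201% of the counts of gene and pseudogenes together, but those of KRT17 held 73.9%, so the level of KRT17 is uncertain.

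Library totals ranged from 15522780 to 23439799 estimated counts with a median of 19341117, which sets a floor of 0.128 to 0.193 CPM for 3 counts in a library. Defining markers of the labelled types were present: 6 pluripotency genes summed to 4142 and 4050.0 CPM in the control, SOX17 and FOXA2 to 115 to 597 CPM in DE(b) medium, TBX6 and MSGN1 to 196 to 279.5 CPM in PM medium, and HAND1 reached 388 to 2127 CPM in LM medium. FOXA2 was at 2.17 and 11.0 CPM in PPS-DE(b), the lowest of the DE(b) conditions, and at 17.1 and 37.8 CPM in MPS-DE(b). In DE(a)-DE(b) it was at 86.0 and 125 CPM. The study found few cells with both SOX17 and FOXA2 protein after MPS or PPS. It concluded that such cells had lost the potential for endoderm, while in DE(b) medium their transcriptomes stayed similar to those of endoderm cells. DE(b) therefore names a medium here and not a cell type. Differences are log2 fold changes ± SE from the quasi-likelihood test of edgeR over 17895 genes, with p-values adjusted over all of them and called at 0.05. A condition has 2 libraries, and in bulk RNA fewer cells of a type and less RNA per cell cannot be told apart.

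KRT8, the type II chain of the first embryonic pair, was higher than in the control under every treatment, most of all in LM medium. The 2 control libraries had 231 and 174 CPM. At 24 h, KRT8 was at 762 and 433 CPM in DE(a), 890.0 and 591 in APS, 1361 and 992 in MPS and 1346 and 955 in PPS. No treated library reached down to the control range, and replicate 1 was above replicate 2 in all 4 treatments and in the control. On day 2, DE(b) medium gave 1124 to 1600.4 CPM (8 libraries, median 1316), PM medium 515 to 989 CPM (median 555) and LM medium 2535 to 4084 CPM (median 3398). The 3 ranges did not overlap. In LM medium replicate 2 was the higher in all 4 conditions, and in PM medium replicate 1 was.

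**Figure D1:**
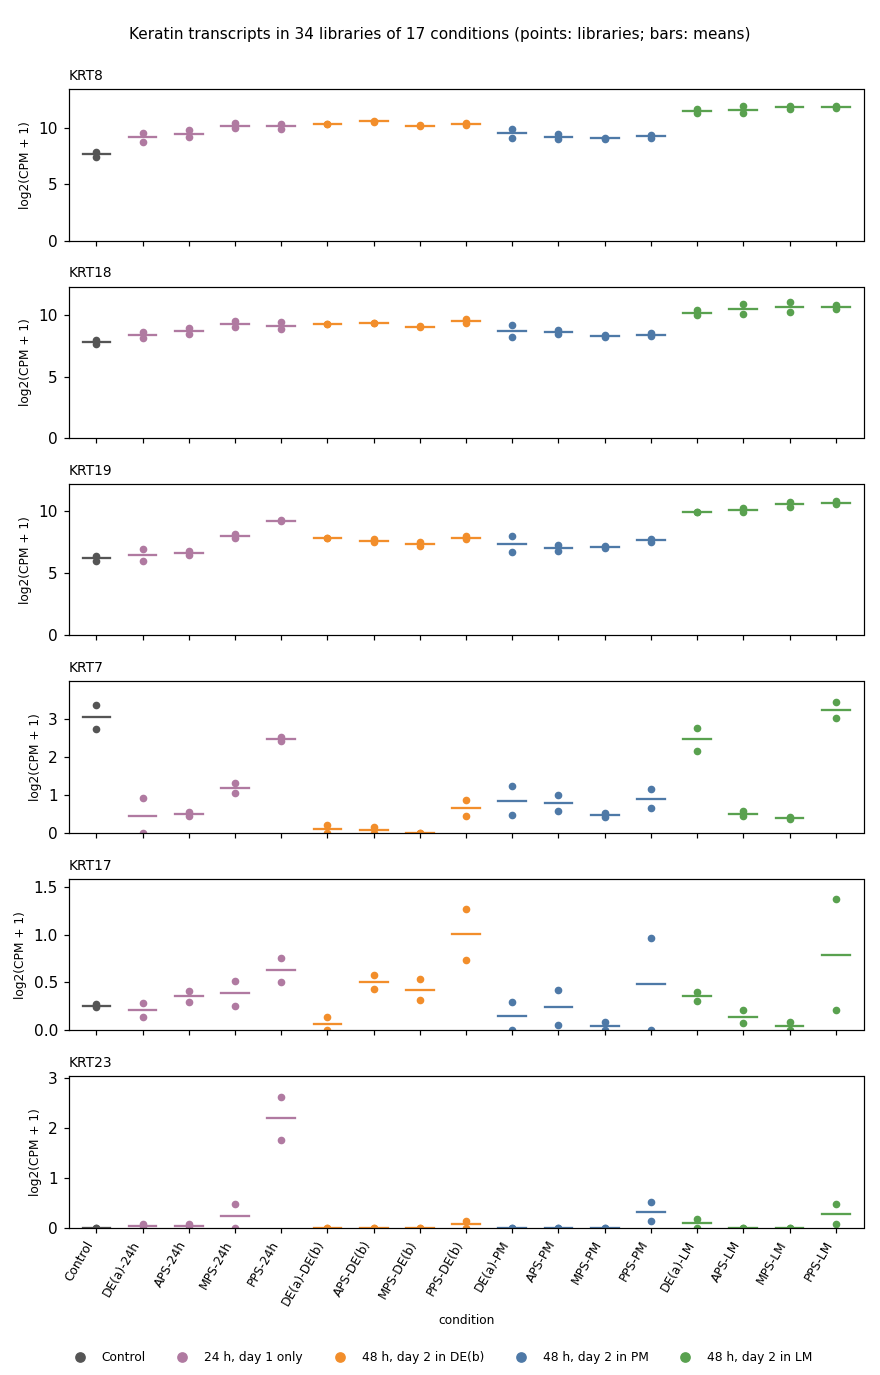
Levels of the keratins in the 34 libraries, on a log2(CPM + 1) axis, with 1 panel per gene and the 17 conditions along the horizontal axis; points are libraries and bars are condition means. KRT8, KRT18 and KRT19 stand highest in the 8 LM libraries, KRT7 is high in the control and in PPS-24h, DE(a)-LM and PPS-LM, and KRT17 and KRT23 stay at or below 5.20 CPM.

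Against the control, KRT8 was called higher in 16 of 16 treated conditions, where 34.6% of all gene tests in these 16 contrasts were called, 18.4% as higher and 16.2% as lower, and single contrasts called between 19% and 43.4% of genes. The smallest rise was in MPS-PM, by 1.40 ± 0.30 on the log2 scale (edgeR adjusted p = 0.000893), and the largest in MPS-LM and PPS-LM, by 4.27 ± 0.34 each (edgeR adjusted p = 1.59e-09 and 1.67e-09). Mean levels in LM medium were 14.2 to 18.3 times the control mean. All 16 calls held when any of the 34 libraries was left out. In order of mean level, the 4 LM conditions overlapped with one another and lay above APS-DE(b), and MPS-PM lay above the control; of the 16 steps between neighbours in that order, 12 had overlapping replicates and 4 did not.

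KRT18, the type I partner of KRT8, followed the same order of media at lower levels and with smaller differences. It was at 254 and 203 CPM in the control. At 24 h it was at 397 and 278 CPM in DE(a), 497 and 357 in APS, 758 and 528 in MPS and 695 and 472 in PPS, with replicate 1 the higher throughout. On day 2, DE(b) libraries had 521 to 819 CPM (median 642), PM libraries 307 to 580.5 CPM (median 346) and LM libraries 1035 to 2132 CPM (median 1411). The DE(b) and PM ranges overlapped through DE(a)-PM replicate 1, the highest PM library. The gap between replicates in LM medium was wide, with replicate 2 the higher in 4 of 4 conditions and the extremes in MPS-LM at 1253 and 2132 CPM.

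KRT18 was called higher than the control in 12 of 16 conditions. The LM conditions rose by 2.39 ± 0.34 in DE(a)-LM to 2.99 ± 0.35 in MPS-LM (edgeR adjusted p = 8.89e-06 and 3.9e-07). DE(a)-24h at 0.66 (edgeR adjusted p = 0.179), APS-PM at 0.77 (0.0683), MPS-PM at 0.49 (0.263) and PPS-PM at 0.60 (0.148) did not pass. Leaving out a library left 10 to 12 calls: APS-24h was lost without control replicate 1, control replicate 2 or APS-24h replicate 1 (edgeR adjusted p = 0.0685, 0.198 and 0.218), and DE(a)-PM without control replicate 1, control replicate 2 or DE(a)-PM replicate 1 (0.0681, 0.194 and 0.426). Of the neighbouring steps in mean level, 14 of 16 overlapped; the 4 LM conditions stood above the rest and the control below it.

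**Figure D2:**
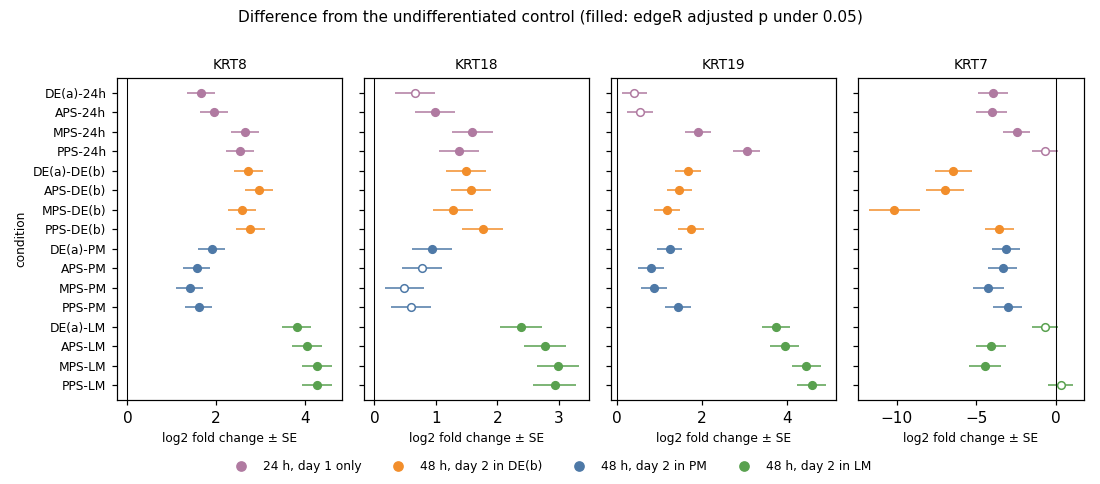
Difference of each treated condition from the control for KRT8, KRT18, KRT19 and KRT7, as log2 fold change (horizontal axis) with SE bars, 1 row per condition; filled points passed an edgeR adjusted p of 0.05. KRT8 lies to the right of 0 in 16 of 16 conditions, KRT19 passed in 14, KRT18 in 12, and KRT7 lies to the left of 0 in 13 that passed.

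KRT19, a type I keratin that lacks most of the tail domain, differed on day 1: it was higher after MPS and, beyond that, PPS treatment than after DE(a) or APS. It was at 84.0 and 62.0 CPM in the control, at 119 and 62.7 CPM in DE(a) and at 112 and 89.3 CPM in APS at 24 h. It was at 225 and 287 CPM in MPS, and at 582 and 605 CPM in PPS. The DE(a) replicates overlapped the control range and the APS replicates lay just above it, while MPS and PPS lay apart from it and from each other. Against the control, KRT19 did not pass in DE(a)-24h (0.41, edgeR adjusted p = 0.406) or APS-24h (0.55, edgeR adjusted p = 0.202), and rose by 1.91 ± 0.31 in MPS-24h and 3.05 ± 0.32 in PPS-24h (edgeR adjusted p = 4.38e-05 and 1.81e-07). The PPS-24h mean was 8.13 times the control mean.

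Of the 18 comparisons made for the 6 keratins between successive day 1 treatments at 24 h (APS with DE(a), MPS with APS, PPS with MPS), only 2 passed, both for KRT19, where 3.27% of all gene tests passed (1.76% higher, 1.5% lower). MPS exceeded APS by 1.36 ± 0.30 (edgeR adjusted p = 0.0117), a call lost without APS-24h replicate 1, APS-24h replicate 2 or MPS-24h replicate 2 (0.0544, 0.187 and 0.122). PPS exceeded MPS by 1.14 ± 0.30 (edgeR adjusted p = 0.0229), lost without MPS-24h replicate 1, MPS-24h replicate 2 or PPS-24h replicate 2 (0.270, 0.0587 and 0.140). In a test of any difference among the 4 day 1 treatments at 24 h, which 18.8% of genes passed, KRT19 had an edgeR adjusted p of 1.12e-06 that held without any single library. KRT17 and KRT23 entered that test only through PPS libraries, so their p-values are not given. KRT7 (0.0142) also passed that test, and KRT8 (0.0526) and KRT18 (0.145) did not. For KRT8 and KRT18 this depended on the fit. Both passed with DESeq2 (DESeq2 adjusted p = 0.0221 and 0.0323) and with edgeR without the filter (9.98e-06 and 9.94e-05). KRT8 also passed with the replicate number as a block (edgeR adjusted p = 0.0318). Neither did with only the 24 h libraries in the fit (edgeR adjusted p = 0.208 and 0.212). KRT7 was lost there without PPS-24h replicate 1 or 2 (0.0632 and 0.0584) and with only the 24 h libraries in the fit (0.107).

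On day 2 KRT19 levels lay closer together across day 1 treatments. In DE(b) medium KRT19 was at 230.2 and 229.7 CPM after DE(a), 185 and 209.9 after APS, 146 and 177 after MPS and 252 and 213 after PPS. In PM medium it was at 248 and 104 CPM, 153 and 107, 127 and 144, and 186 and 211 in the same order. PPS and DE(a) replicates overlapped in both media. In LM medium it was at 992 and 978 CPM after DE(a), 983 and 1183 after APS, 1705 and 1289.6 after MPS and 1806 and 1492 after PPS. MPS and PPS lay above DE(a) and APS there, without overlap. A test among the 4 treatments did not pass in DE(b), PM or LM medium (edgeR adjusted p = 0.510, 0.495 and 0.112), but this depended on the fit. In LM medium it passed with DESeq2 (DESeq2 adjusted p = 3.4e-05). It also passed there with only the LM libraries in the fit and without the filter (edgeR adjusted p = 0.0333 and 7.74e-05). DESeq2 called it in DE(b) medium (adjusted p = 0.0082), and edgeR without the filter in PM medium (0.0347).

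The change in KRT19 from 24 h to 48 h differed with the day 1 treatment. From 24 h to DE(b) medium KRT19 rose by 1.27 ± 0.30 after DE(a) (edgeR adjusted p = 0.00299) and fell by 1.31 ± 0.30 after PPS (0.00289). The difference between these changes was -2.58 ± 0.42 (edgeR adjusted p = 0.000231), in a test that 19.9% of genes passed. In PM medium the changes were 0.83 after DE(a) and -1.61 after PPS, a difference of -2.44 ± 0.42 (edgeR adjusted p = 0.00073, 7.83% of genes; 0.0655 with only the libraries compared in the fit). In LM medium KRT19 rose after every treatment, by 3.32 ± 0.32 after DE(a) and by 1.52 ± 0.30 after PPS, a difference of -1.80 ± 0.42 (edgeR adjusted p = 0.00556, 13.6% of genes). Tests of any difference among the 4 changes gave KRT19 edgeR adjusted p-values of 0.000256 in DE(b) (16.8% of genes), 0.00145 in PM (7.46%) and 0.00822 in LM medium (14.6%), the last lost without PPS-LM replicate 2 (0.0563). The 3 differences between PPS and DE(a) use the same 24 h libraries, in which the PPS and DE(a) levels differ, were chosen after the levels had been seen, and held when any library was left out. The single rise after DE(a) in DE(b) medium was lost without DE(a)-24h replicate 2 (0.0707), and that in PM medium (edgeR adjusted p = 0.0478) without DE(a)-24h replicate 2 or DE(a)-PM replicate 1 (0.399 and 0.885).

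**Figure D3:**
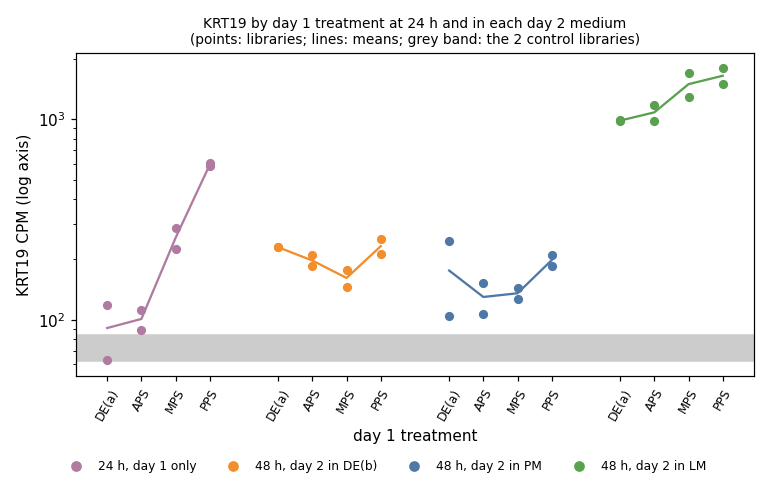
KRT19 in CPM (log axis) against the day 1 treatment, at 24 h and in each day 2 medium; points are libraries, lines join condition means, and the grey band spans the 2 control libraries. KRT19 climbs from 62.7 to 119 CPM in DE(a) to 582 and 605 CPM in PPS at 24 h, lies between 104 and 252 CPM in DE(b) and PM media whatever the day 1 treatment, and between 978 and 1806 CPM in LM medium.

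KRT19 was called higher than the control in 14 of 16 conditions, with LM conditions 3.73 to 4.57 log2 units above it and mean levels 13.5 to 22.6 times the control mean. Leaving out a library left 10 to 14 calls. MPS-DE(b), DE(a)-PM, APS-PM and MPS-PM were lost without control replicate 2 (edgeR adjusted p = 0.0562, 0.0549, 0.251 and 0.192), and APS-PM also without control replicate 1 (0.0501) or APS-PM replicate 1 (0.284). DE(a)-PM was lost without its replicate 1 (0.216) and MPS-PM without its replicate 2 (0.135). In order of mean level, PPS-LM and MPS-LM overlapped and lay above APS-LM and DE(a)-LM, which lay above PPS-24h, which in turn lay above MPS-24h; 11 of 16 neighbouring steps overlapped.

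KRT7, the second type II chain, was scarce, and against the control it was lower in most conditions where KRT8, KRT18 and KRT19 were higher. It was at 9.28 and 5.69 CPM in the control. At 24 h it was at 0.881 and 0 CPM in DE(a), 0.473 and 0.366 in APS, 1.06 and 1.49 in MPS and 4.72 and 4.33 in PPS. All 24 h libraries lay below the control, with PPS the nearest to it. In DE(b) medium 5 of 8 libraries had 3 counts or fewer, and MPS-DE(b) had 0 counts in both; the highest was PPS-DE(b) at 0.819 and 0.364 CPM. In PM medium KRT7 stayed between 0.334 and 1.35 CPM.

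In LM medium KRT7 split by the day 1 treatment. It was at 3.50 and 5.78 CPM in DE(a)-LM, at 0.361 and 0.483 in APS-LM, at 0.291 and 0.332 in MPS-LM and at 7.18 and 9.97 in PPS-LM. DE(a)-LM and PPS-LM lay above both other conditions without overlap, and they reached the range of the control. These levels rest on few reads, from 5 and 7 counts in MPS-LM to 137 and 182 in PPS-LM.

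KRT7 was called lower than the control in 13 of 16 conditions, beside the 16.2% of all gene tests called lower. The mean was at least 47.8-fold lower in APS-DE(b) and at least 40.0-fold lower in MPS-DE(b), taking 3 counts per library as the floor. The 3 that did not pass were PPS-24h (-0.69, edgeR adjusted p = 0.559), DE(a)-LM (-0.70, 0.547) and PPS-LM (0.27, 0.826). Between 11 and 13 calls were left without a library. MPS-24h was lost without control replicate 1 or either of its own replicates (edgeR adjusted p = 0.151, 0.183 and 0.106) and DE(a)-PM without control replicate 1 or its own replicate 1 (0.054 and 0.110). APS-PM and PPS-PM were lost without their replicate 1 (0.0668 and 0.0829), and PPS-DE(b) without its replicate 2 (0.0615).

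Against the standard protocol of the same medium, 2 of 54 keratin comparisons passed, where 5.88% of all gene tests did (3.25% higher, 2.63% lower), and both were of KRT7 in LM medium. KRT7 exceeded MPS-LM by 3.76 ± 0.96 in DE(a)-LM (edgeR adjusted p = 0.0100) and by 4.74 ± 0.99 in PPS-LM (edgeR adjusted p = 0.00504). The first was lost without DE(a)-LM replicate 2, MPS-LM replicate 1 or MPS-LM replicate 2 (0.0525, 0.0841 and 0.0859), and the second without either MPS-LM replicate (0.0855 and 0.0591). Among the 4 day 1 treatments KRT7 passed in LM medium (edgeR adjusted p = 0.000863, 19.6% of genes) and in DE(b) medium (0.0284, 16.6%). In PM medium none of the 6 keratins did, where 7.47% of genes passed. KRT17 and KRT23 entered that test only through PPS libraries, so their p-values are not given. The lowest edgeR adjusted p of the others was 0.495, for KRT19. The LM call held without any single library, and the DE(b) call was lost without either MPS-DE(b) replicate or PPS-DE(b) replicate 1 (0.063, 0.0612 and 0.326). For KRT8, KRT18 and KRT19 the differences from the standard protocol lay between -0.71 ± 0.30 (KRT19 in DE(a)-LM) and 0.63 ± 0.30 (KRT19 in PPS-PM), and 0 of 27 passed. An interaction of day 1 and day 2 treatment, which 13.1% of genes passed, was called for 0 of 6 keratins by edgeR, with KRT7 alone under an unadjusted p of 0.05 (adjusted p = 0.137); DESeq2 called KRT7 (adjusted p = 0.00653).

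In LM medium CDH1 (E-cadherin), the adhesion protein of epithelial junctions, was high in the same conditions as KRT7, and the amnion markers were in part. CDH1 was at 186 and 209 CPM in DE(a)-LM, 47.4 and 46.4 in APS-LM, 46.3 and 67.4 in MPS-LM and 616 and 763 in PPS-LM, so the same 2 conditions stood above the others. The 12 amnion markers summed to 854 and 1088 CPM in DE(a)-LM, 962 and 1214 in APS-LM, 1206 and 1299 in MPS-LM and 2350.0 and 2239 in PPS-LM. In the control they summed to 46.1 and 42.4 CPM. That sum was high in PPS-LM but not in DE(a)-LM. Its 2 largest parts in MPS-LM, BAMBI and GATA2, were lower in DE(a)-LM, with GATA2 at 119 and 196 CPM against 459 and 344. GATA3 and TFAP2A, named after their values were seen, had higher levels in DE(a)-LM than in MPS-LM, where GATA3 was called and TFAP2A was not. GATA3 was at 129 and 140 CPM against 36.2 and 63.1, and TFAP2A at 55.1 and 88.2 against 30.6 and 35.4. Against MPS-LM, 7 of 12 amnion markers were higher in PPS-LM and 0 lower (median 2.68, all genes 0), where 3.86% of all genes were higher and 1.74% lower. In DE(a)-LM 2 were higher and 1 lower (median 0.67, all genes 0.00), where 9.09% of all genes were higher and 5.27% lower. GABRP, a GABA receptor subunit of amnion and other epithelia, rose by 5.70 in PPS-LM and 2.08 in DE(a)-LM (edgeR adjusted p = 2.51e-05 and 0.034). VTCN1, another amnion marker, named after its values were seen, was at 5.77 and 9.74 CPM in PPS-LM and at or under 0.334 CPM in the other LM libraries. DE(a)-LM cells also held the endoderm markers SOX17 (94.8 and 69.6 CPM) and FOXA2 (34.6 and 28.8 CPM), which were at or under 0.190 CPM in MPS-LM and PPS-LM. The part of these cell types in the KRT7 result was not tested.

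**Figure D4:**
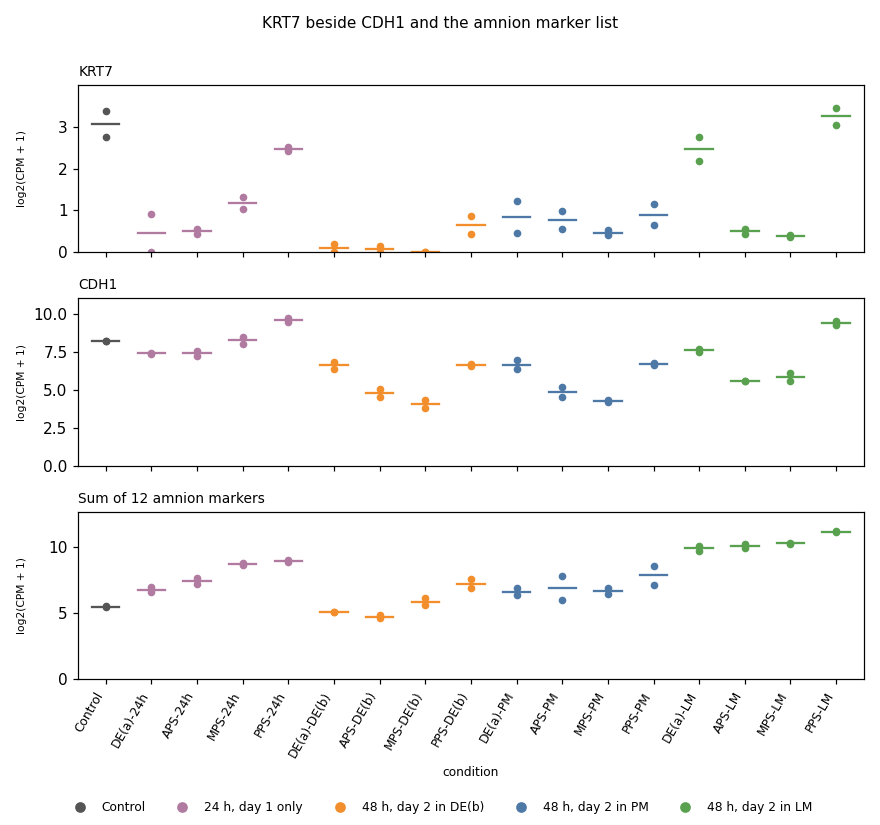
KRT7, CDH1 and the sum of 12 amnion markers in the 17 conditions, on log2(CPM + 1) axes; points are libraries and bars are condition means. In LM medium KRT7 and CDH1 are high after DE(a) and PPS and low after APS and MPS, while the amnion sum is highest after PPS, at 2350.0 and 2239 CPM.

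KRT17 stayed at 1.59 CPM or less in every library and was called in 0 of 16 contrasts with the control, with 0 of 16 under an unadjusted p of 0.05 in edgeR and 0 called by DESeq2; a fit to only the libraries compared called 1. KRT17 entered the tests only through PPS libraries, so no conclusion is drawn from how many of them passed. The control had 0.181 and 0.213 CPM. The highest values came from PPS-treated cells: 1.41 and 0.667 CPM in PPS-DE(b), 0.951 and 0 CPM in PPS-PM and 0.158 and 1.59 CPM in PPS-LM. The replicates of PPS-PM and PPS-LM lay far apart, the latter at 3 and 29.0 counts. When the counts of KRT17 pseudogenes were added, 5 of 16 contrasts with the control passed, from 2.20 in APS-24h to 3.40 in PPS-24h; whether the added counts are reads of KRT17 or of the copies was not tested.

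KRT23 was found almost only in PPS cells at 24 h, at 5.20 and 2.41 CPM (105 and 40.0 counts). It had 0 counts in both control libraries and 10 counts or fewer in every other library. Its level in PPS-24h was at least 25.8-fold higher than in the control, taking 3 counts per library as the floor. By PPS-DE(b) it was at 2 and 0 counts, at least 23.3-fold lower than in PPS-24h, and it was at 0.432 and 0.0952 CPM in PPS-PM and 0.0525 and 0.383 CPM in PPS-LM. KRT23 entered the tests only through libraries of PPS-treated cells, so its differences between PPS-24h and other conditions are given as levels, without a p-value.

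Relative to their own 24 h population, keratins were called higher in 18 and lower in 9 of 72 comparisons (1 of the 9 was KRT23), where 27% of all gene tests passed (13.2% higher, 13.8% lower). No cells were kept in a day 1 mix to 48 h, so medium and elapsed time cannot be told apart in these comparisons. In LM medium KRT8 (1.63 to 2.15), KRT18 (1.39 to 1.79) and KRT19 (1.52 to 3.38) were higher than at 24 h after each of the 4 day 1 treatments. Of these 12 calls only KRT18 in MPS-LM was lost without a library, MPS-LM replicate 2 (edgeR adjusted p = 0.0656). KRT7 rose from DE(a)-24h to DE(a)-LM by 3.26 ± 0.93 (edgeR adjusted p = 0.00998), lost without DE(a)-24h replicate 2 or DE(a)-LM replicate 2 (0.0708 and 0.0605). In PM medium KRT8 was lower than at 24 h, by 1.24 ± 0.30 after MPS and by 0.93 ± 0.30 after PPS (edgeR adjusted p = 0.00434 and 0.0307). The MPS call was lost without MPS-24h replicate 1 (0.0755), and the PPS call without PPS-24h replicate 1 or either PPS-PM replicate (0.218, 0.0682 and 0.191).

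Averaged over the 4 day 1 treatments, the media were ordered LM, DE(b), PM for KRT8, KRT18 and KRT19, and 12 of 18 keratin comparisons passed, beside 41.5% of all gene tests (20.7% higher, 20.8% lower). LM exceeded PM by 2.48 ± 0.16 for KRT8, 2.08 ± 0.17 for KRT18 and 3.08 ± 0.16 for KRT19, and exceeded DE(b) by 1.34 ± 0.15, 1.25 ± 0.16 and 2.65 ± 0.16. DE(b) exceeded PM by 1.14 ± 0.15 for KRT8 and 0.83 ± 0.16 for KRT18 (edgeR adjusted p = 1.63e-06 and 0.000217). For KRT19 that step was only 0.42 ± 0.15 (edgeR adjusted p = 0.024), and it was lost without any 1 of 7 libraries (up to 0.0674). KRT7 had another order: DE(b) lay 3.32 ± 0.68 below PM and 4.53 ± 0.66 below LM (edgeR adjusted p = 0.000412 and 8.58e-06). LM exceeded PM by 1.21 ± 0.46 for KRT7 (edgeR adjusted p = 0.0407), lost without any 1 of 11 libraries (up to 0.0898). The fit takes the libraries of a medium as independent. For KRT8, however, replicate 2 was the higher in 4 of 4 LM conditions and replicate 1 in 4 of 4 PM conditions. For KRT7 and KRT18 replicate 2 was the higher in 4 of 4 LM conditions. The SEs and p-values of these averages may therefore be too small. KRT17 and KRT23 passed in 0 of 6, with 0 under an unadjusted p of 0.05 in edgeR and 0 called by DESeq2. Both entered the tests only through PPS libraries.

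Levels of different genes are compared here as CPM per kilobase of the canonical transcript. On that scale KRT8 was below KRT18 in the 2 control libraries, at a ratio of 0.678 and 0.721, and above it in all 32 treated libraries, at 1.15 to 2.05. The ratio was 1.23 to 1.60 at 24 h, 1.37 to 1.89 in DE(b), 1.15 to 1.44 in PM and 1.52 to 2.05 in LM medium. KRT19 stood at 0.311 to 0.336 of KRT18 in the control and at 0.284 to 0.373 in DE(b) medium, and at 0.615 to 1.38 in LM medium, where it passed KRT18 in some libraries. The sum of the type II chains over that of the type I chains was 0.536 to 0.563 in the control and 0.698 to 1.43 elsewhere. These are ratios of transcripts and not of proteins.

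**Figure D5:**
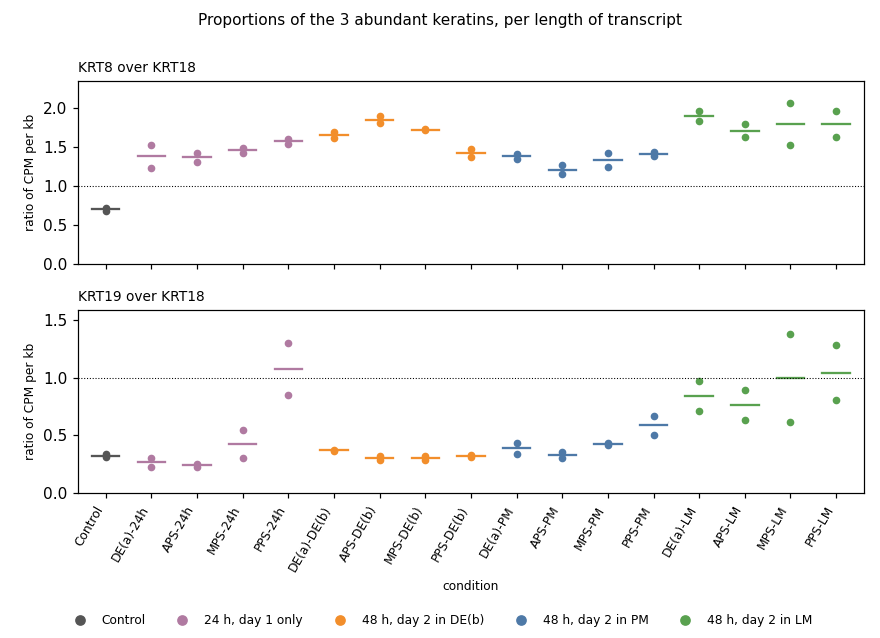
Ratios of CPM per kilobase in the 34 libraries, by condition: KRT8 over KRT18 and KRT19 over KRT18, with a dotted line at 1. KRT8 over KRT18 is 0.678 and 0.721 in the control and 1.15 to 2.05 in every treated library; KRT19 over KRT18 is 0.615 to 1.38 in LM medium and 0.230 to 1.30 at 24 h.

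Across the 34 libraries, on log2(CPM + 1), KRT8 and KRT18 had a Pearson correlation of 0.975, KRT18 and KRT19 of 0.904 and KRT8 and KRT19 of 0.894. KRT7 had 0.00649 with KRT8, 0.108 with KRT18 and 0.310 with KRT19. These values describe libraries that share 4 day 1 treatments and 3 media, and the libraries are not independent points. Among 12260 candidate genes the most alike by that measure were ZNF611 (0.932), SMAD6 (0.910) and BMPER (0.900) for KRT8. For KRT18 they were TBX20 (0.922), BMPER (0.909) and WBP1L (0.903), and for KRT19 SMAD9 (0.951), AL138900.3 (0.927) and DIO2 (0.925). For KRT7 they were SGK1 (0.879), CXCL12 (0.816) and PROM2 (0.793), for KRT23 GABRA4 (0.858), and for KRT17 TINAGL1 (0.677). The values for KRT23 and KRT17 rest on few libraries over the filter limit of 0.517 CPM, 2 and 5, all of PPS-treated cells. Pseudogene rows also held 73.9% of the counts of KRT17 and its copies.

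In LM against PM medium, where KRT8, KRT18 and KRT19 were higher, 21% of all genes were called higher and 21% lower. Of 15 tested genes of desmosomes and plakins, 3 were higher, a share like that of all genes, and 8 lower (median -0.41, all genes 0.00). PKP2 and JUP, plaque proteins, were 2.91 and 0.81 higher, while DSP (desmoplakin), which anchors keratins to desmosomes, and the cadherin DSC3 differed by -1.61 and -1.46. Of 13 other intermediate filament genes 4 were higher and 5 lower (median -0.06), both larger shares than the 21% of all genes. SYNM (synemin) was 3.45 and PRPH (peripherin) 1.64 higher, and INA (internexin) and NEFL (a neurofilament chain) differed by -1.35 and -0.86. The list of epithelial transcription and splicing factors moved mostly one way, with 11 of 14 tested genes higher in LM than in PM medium and 0 lower (median 1.59), among them TFAP2A (5.81) and GRHL3 (3.89). Of the 12 amnion markers, 11 were higher and 1 lower (median 4.36), so amnion markers also moved with the keratins in this comparison; their sums were 854 to 2350.0 CPM in LM and 61.9 to 383 CPM in PM medium, and their part in the keratin levels was not tested. TFAP2A and TFAP2B are on both the amnion and the epithelial factor list, so these lists are not separate. ISL1, an amnion marker here, also serves the study as a marker of lateral mesoderm.

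Between LM conditions, where KRT7 differed, 10 of 14 epithelial factors were higher and 1 lower in PPS-LM than in MPS-LM (median 2.48), and 9 were higher and 1 lower in DE(a)-LM (median 2.46); the shares of all genes were 3.86% and 1.74% in PPS-LM and 9.09% and 5.27% in DE(a)-LM. GRHL2, a regulator of epithelial genes, was 3.62 and 3.28 higher in the 2 conditions and KLF5 lower, at -1.29 and -1.26. Of the desmosome and plakin genes, 3 were higher and 1 lower in PPS-LM, with PKP3 at 2.69, DSP at 1.56 and DSC3 at -2.07; in DE(a)-LM 3 were higher and 3 lower, with PKP3 at 2.27 and DSC3 at -2.04. VIM (vimentin), the main mesenchymal filament, differed by -1.79 in PPS-LM (edgeR adjusted p = 0.0014) and by -0.16 in DE(a)-LM (0.846). PRPH differed by 1.35 in PPS-LM and by -3.22 in DE(a)-LM, where SYNM differed by -3.05. Of 4 markers of surface ectoderm and basal epithelium, KRT5 and KRT14 had 3 counts or fewer in every LM condition, while TP63 was at 4.79 and 6.91 CPM and KRT15 at 1.42 and 2.02 CPM in PPS-LM. Their sum was 6.21 and 8.99 CPM there and 0.430 to 1.74 CPM in the other LM libraries. The 6 trophoblast markers summed to 100.0 and 83.2 CPM in PPS-LM, 67.0 and 62.6 in MPS-LM, 40.2 to 53.5 in DE(a)-LM and APS-LM, and 85.2 and 69.2 in the control. CGB3 had 3 counts or fewer in every condition, and CGA and ERVFRD-1 did in the control and the LM conditions other than PPS-LM. The part of these cell types in the keratin levels was not tested.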

How the data were processed

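Poly(A) RNA of the 34 libraries was read as pairs of 75 bases. The authors deposited estimated counts per gene: reads were assigned to GRCh38 transcripts with Salmon 1.10.2, with sequence and GC bias correction, and summed to genes in R 4.4.2, per the submitters' processing notes. Replicate 1 of every condition is in 1 table and replicate 2 in another. Estimated counts were rounded and fitted with edgeR 4.0.16 in R 4.3.3 (TMM, filter on low counts by condition, 1 mean per condition, quasi-likelihood F test, Benjamini-Hochberg adjustment over 17895 genes, 17 residual degrees of freedom). CPM is the count scaled to a library total of 1e6. The study calls the replicates biological, without saying what separated them, so p-values measure the spread between these samples. The members and gene lists were chosen with earlier results of these data known. Named genes are the members and, per list, the 2 largest called rises and falls. Alternatives were DESeq2 1.42.0, RLE normalization, no filter, a replicate block, added pseudogene counts, only the libraries compared and each library left out. On simulated counts for PPS-LM against the control (14655 genes averaging over 1 CPM, dispersion 0.06), 16 of 100 genes changed 2-fold and 93 of 100 changed 4-fold were recovered. No other gene was changed, whereas the measured contrast called 41.1% of genes. Estimated dispersions were 0.233 for KRT7, 0.599 for KRT17 and 0.920 for KRT23. The simulated rates therefore do not carry over to these genes or to that share of calls. Gene positions and the coding sequences aligned are from GENCODE v44; some sequences are not reported here. E-CAD knockout libraries were not analysed here.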

Additional observations from a re-analysis of the deposited data

Results flagged for a closer look

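The change in KRT19 from 24 h to 48 h differed between cells treated with PPS and with DE(a) factors on day 1, in a test of the difference itself chosen after the levels had been seen. PPS less DE(a) was -2.58 on the log2 scale in DE(b) medium, -2.44 with PM medium and -1.80 with LM medium; the 3 values share their 24 h libraries. The PM difference was lost with only the libraries compared in the fit (edgeR adjusted p = 0.0655). The KRT7 change from 24 h to LM medium differed among the 4 day 1 treatments with an edgeR adjusted p of 0.0445, where 14.6% of genes passed. That call was lost without any 1 of 21 libraries (edgeR adjusted p = 0.0511 to 0.117) and with only the libraries compared in the fit (0.0511).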

How the results depend on the processing

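With 2 libraries per condition, low counts limit KRT7, KRT17 and KRT23. In simulated data with few changed genes, 2-fold changes were seldom recovered. Of 111 single calls, 111 were kept under RLE normalization, without the filter, with pseudogene counts added and with the replicate block; DESeq2 kept 108 of 110 and a fit to only the libraries compared 104 of 110. DESeq2 lost 2 calls of KRT23, which entered the tests only through PPS libraries; the fit to only the libraries compared lost DE(a)-PM against the control for KRT18 (edgeR adjusted p = 0.0518), DE(a)-PM against DE(a)-24h for KRT19 (0.213), PPS-PM against PPS-24h for KRT8 (0.0588), the PM change of KRT19 (0.0655) and 2 tests of KRT7 among day 1 treatments (0.107 at 24 h, 0.0511 for the LM change). Leaving out single libraries kept 759 of 870 calls, lost 111 and reversed 0.

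Without the filter on low counts, calls between 24 h treatments came to 4 higher, against the standard protocol to 5 higher and 2 lower, from day 1 to day 2 to 16 lower, for the interaction to 3, within a medium to 10 and for the change from 24 h to 7 by the contrast and 9 by the F test. With pseudogene counts added, 4 were higher than the standard protocol and 15 lower from day 1 to day 2. DESeq2 gave 1 call for the interaction and 9 within a medium. The cause of these shifts was not tested. Leaving out 1 library gave 36 to 43 higher and 11 to 13 lower calls against the control, 0 to 2 higher and 0 to 0 lower between 24 h treatments, 0 to 3 higher and 0 to 1 lower against the standard protocol, 14 to 19 higher and 6 to 12 lower from day 1 to day 2, 9 to 11 higher and 1 to 1 lower between media, 0 to 1 for the interaction, 3 to 7 within a medium, 3 to 6 for the change by the contrast and 2 to 8 by the F test.

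Replicate numbers were not treated as pairs, since not every pair's correlation passed 0.1: over 136 pairs of conditions the correlation of same-numbered deviations was -0.0743 to 0.340 with a median of 0.0755, with 43 over 0.1 and 13 below 0. Some shifts ran with the number within a stage: replicate 1 was the higher for KRT8 in 4 of 4 conditions at 24 h and in PM medium, and replicate 2 in 4 of 4 in LM medium. A block of the replicate number fits 1 shift over all conditions, so it cannot take up shifts that run opposite ways between stages. With the replicate number as a block the calls were 43 higher and 13 lower against the control and 18 higher and 9 lower from day 1 to day 2, as without it. Of the 43 and of the 9, 1 each was of KRT23, which entered the tests only through PPS libraries. The block did change the test of KRT8 among the day 1 treatments at 24 h. That test passed with it (edgeR adjusted p = 0.0318) and not without it (0.0526).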

Other observations

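KRT8, KRT18 and KRT19 held 98.3% of all keratin counts, and 14 of the 52 other keratin genes listed reached 1 CPM in a condition. The following keratins were named after their values were seen. KRT71, a type II keratin of the hair follicle's inner root sheath, was found in PM medium, at 5.75 and 39.0 CPM in DE(a)-PM, 19.9 and 49.5 in APS-PM, 19.1 and 57.4 in MPS-PM and 58.2 and 111 in PPS-PM, and had 0 counts in the control, DE(b) and LM libraries. KRT74 was also highest in PM medium and at 0 in the control, DE(b) and LM libraries, with 8.31 and 23.7 CPM in MPS-PM. Replicate 2 was the higher for both genes in 4 of 4 PM conditions. KRT2, KRT5, KRT72 and KRT73, which lie beside them on chromosome 12, were lower, with KRT72 at 10.5 and 13.1 CPM and KRT73 at 4.97 and 7.28 CPM in PPS-PM.

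KRT20, a keratin of intestinal epithelium, was at 9.67 and 16.4 CPM in MPS-24h and 3.25 and 3.63 CPM in APS-24h, and had 0 counts in the control, PM and LM libraries. KRT39 and KRT38, 2 type I keratins of hair, were at 9.43 and 2.89 CPM and at 2.12 and 3.25 CPM in PPS-24h. KRT16 was at 3.42 and 3.38 CPM in PPS-LM and had 0 counts in the control.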
